A study of Mus musculus with 9 samples.

Results

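The genes described here encode the structural proteins of the extracellular matrix: 44 collagen chains, 10 laminin chains and 13 matrix glycoproteins and proteoglycans. They were chosen by name, as collagens of the form Col1a1 and laminins of the form Lama1, together with Fn1, Tnc, Sparc, Postn, Nid1, Nid2, Hspg2, Dcn, Lum, Bgn, Fbln1, Fbln2 and Fbn1. This gave 67 of the 33586 entries of the deposited expression table. The rule uses names alone, although it was set with earlier results of these data known.

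Expression was measured by RNA sequencing of mouse brain in a haemorrhage model made by injecting collagenase, an enzyme that digests collagen and so weakens vessel walls. The 9 libraries form an experimental, an intervention and a control group of 3 libraries each, and the tissue is described as lying around the haematoma. The title of the series names tetrahedral nucleic acid nanomaterials carrying miR-124, a microRNA of neurons, as the treatment under study. What each group received, whether the control animals had a haemorrhage, the time of sampling, and the strain, age and genotype of the mice are not stated in the labels. Nor do the labels say that libraries came from separate animals, so that p-values measure only the spread between these samples.

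The extracellular matrix of the healthy brain holds little fibrillar collagen. Basement membranes, thin sheets around blood vessels and under the meninges, are built from a collagen IV network and a laminin network, which nidogens and the proteoglycan perlecan tie together. Fibrillar collagens lie in the meninges and in the walls of larger vessels, and fibronectin and tenascin C are deposited after injury in many tissues.

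Levels are given as FPKM, a count of fragments scaled to transcript length and to the mapped fragments of the library. Most matrix genes were low: in the experimental group 5 of the 67 had a mean of at least 10 FPKM, 33 lay from 1 to 10 FPKM and 29 were under 1 FPKM. The same counts were 5, 30 and 32 in the intervention group, and 1, 26 and 40 in the control group, where Sparc alone exceeded 10 FPKM. A gene was tested where it reached 1 FPKM in at least 3 of the 9 libraries, which 38 of the 67 did. The other 29 are given as values per library. A low gene can pass this filter through the group in which it is high, so that counts among the 38 describe those genes and not the 67.

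Of the whole series, 14570 genes passed the filter. The neuronal markers that define brain tissue were present in every library, with summed levels of 886 to 1100 FPKM in the experimental, 966 to 1110 FPKM in the intervention and 1280 to 1400 FPKM in the control libraries. At a limma adjusted p under 0.05, 9 of the 10 were lower in the experimental than in the control group (17.3% of all tested genes). In the intervention group 8 of the 10 were lower than in control (11.4% of all tested genes). Choroid plexus markers varied widely within groups, with sums of 297 to 774 FPKM in the experimental, 214 to 1190 FPKM in the intervention and 331 to 918 FPKM in the control libraries. The table gives no read counts, so the depth of each library is unknown.

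The stretches of 250 bases before the transcription start are shown for 3 genes that were higher in both comparisons with control, Tnc, Col3a1 and Col5a3. They are from the RefSeq promoter table (GRCm38.p6), at chr4:64047016-64047265 on the minus strand, chr1:45311288-45311537 on the plus strand and chr9:20815068-20815317 on the minus strand. Each is written 5′ to 3′, and capitals mark 3 motifs on either strand, namely the TATA motif, the CCAAT motif and the GC box.
Tnc: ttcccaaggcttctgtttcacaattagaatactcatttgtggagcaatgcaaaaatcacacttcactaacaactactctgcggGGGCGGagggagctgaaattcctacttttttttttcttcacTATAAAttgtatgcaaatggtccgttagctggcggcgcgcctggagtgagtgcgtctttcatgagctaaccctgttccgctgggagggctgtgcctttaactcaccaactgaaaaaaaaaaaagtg
Col3a1: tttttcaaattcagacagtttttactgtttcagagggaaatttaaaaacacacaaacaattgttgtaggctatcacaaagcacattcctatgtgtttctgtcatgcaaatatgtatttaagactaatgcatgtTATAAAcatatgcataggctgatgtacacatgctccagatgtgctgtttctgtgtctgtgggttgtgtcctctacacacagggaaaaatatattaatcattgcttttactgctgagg
Col5a3: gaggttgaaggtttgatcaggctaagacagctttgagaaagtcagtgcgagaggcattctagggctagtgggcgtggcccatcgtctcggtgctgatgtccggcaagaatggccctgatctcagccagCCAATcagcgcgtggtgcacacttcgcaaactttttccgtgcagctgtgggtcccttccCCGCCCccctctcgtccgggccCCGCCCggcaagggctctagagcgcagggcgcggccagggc
The stretch before Tnc holds 1 TATA motif and 1 GC box, that before Col3a1 holds 1 TATA motif, and that before Col5a3 holds 1 CCAAT motif and 2 GC boxes. Of the 67 genes, 49 had an entry in the promoter table. A gene was counted where any of its stretches held the motif. The matrix genes all encode proteins, while the genes of the table were not limited by type. GGGCGG, the GC box bound by Sp1 family factors, was found on either strand in 61.2% of the 49 and in 35.4% of all 27025 genes of the table. The TATA motif, spelled TATAAA, was found in 14.3% of both sets. The CCAAT motif stood in 30.6% of the matrix genes and 37.5% of all genes. TGACTCA, an AP-1 motif, stood in 2.04% of the matrix genes and 5.16% of all genes, and the Smad motif CAGACA in 28.6% and 19.3%. Such matches describe the letters in these windows and do not show binding.

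The first comparison was that of the experimental with the control group. Matrix genes were mostly higher in the experimental group: 23 of the 38 tested rose and 0 fell at a limma adjusted p under 0.05, where 19.9% of all 14570 tested genes rose and 17.3% fell. The basement membrane genes Col4a1 and Col4a2, the glycoprotein genes Fn1 and Tnc and the fibrillar collagen gene Col3a1 each rose at least 2-fold on the log2(FPKM + 1) scale. The median log2 fold change was 0.57 in the 38 and -0.028 in all tested genes. Among the 23, Lama4 and Col5a2 reached 1 FPKM in the experimental libraries alone, and so passed the filter through the higher group. Tnc, Col3a1, Col5a3, Nid2, Hspg2 and Col20a1 reached 1 FPKM in no control library, and so passed it through the experimental and intervention libraries. With no filter on low values, 25 of the 67 were higher, where 9.5% of all entries, not matched in level, were. Rescaled to TPM, a unit with equal sums in every library, 23 of the 38 were higher, while the calls over all genes moved to 2175 higher and 4661 lower, against 2894 and 2521 in FPKM.

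Summed over the 67 genes without the abundant Sparc, the level was 160.5 ± 14.8 FPKM in the experimental, 133.3 ± 13.0 FPKM in the intervention and 84.5 ± 7.19 FPKM in the control group (mean ± SD, n = 3 each). With Sparc included, the sum was 324.5 ± 53.2 FPKM in the experimental, 341.5 ± 49.7 FPKM in the intervention and 188.5 ± 46.0 FPKM in the control group. The intervention mean thus lay below the experimental mean without Sparc and above it with Sparc. In bulk tissue, fewer cells of a type and less RNA per cell cannot be told apart, and neither can more cells and more RNA per cell.

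**Figure D1:**
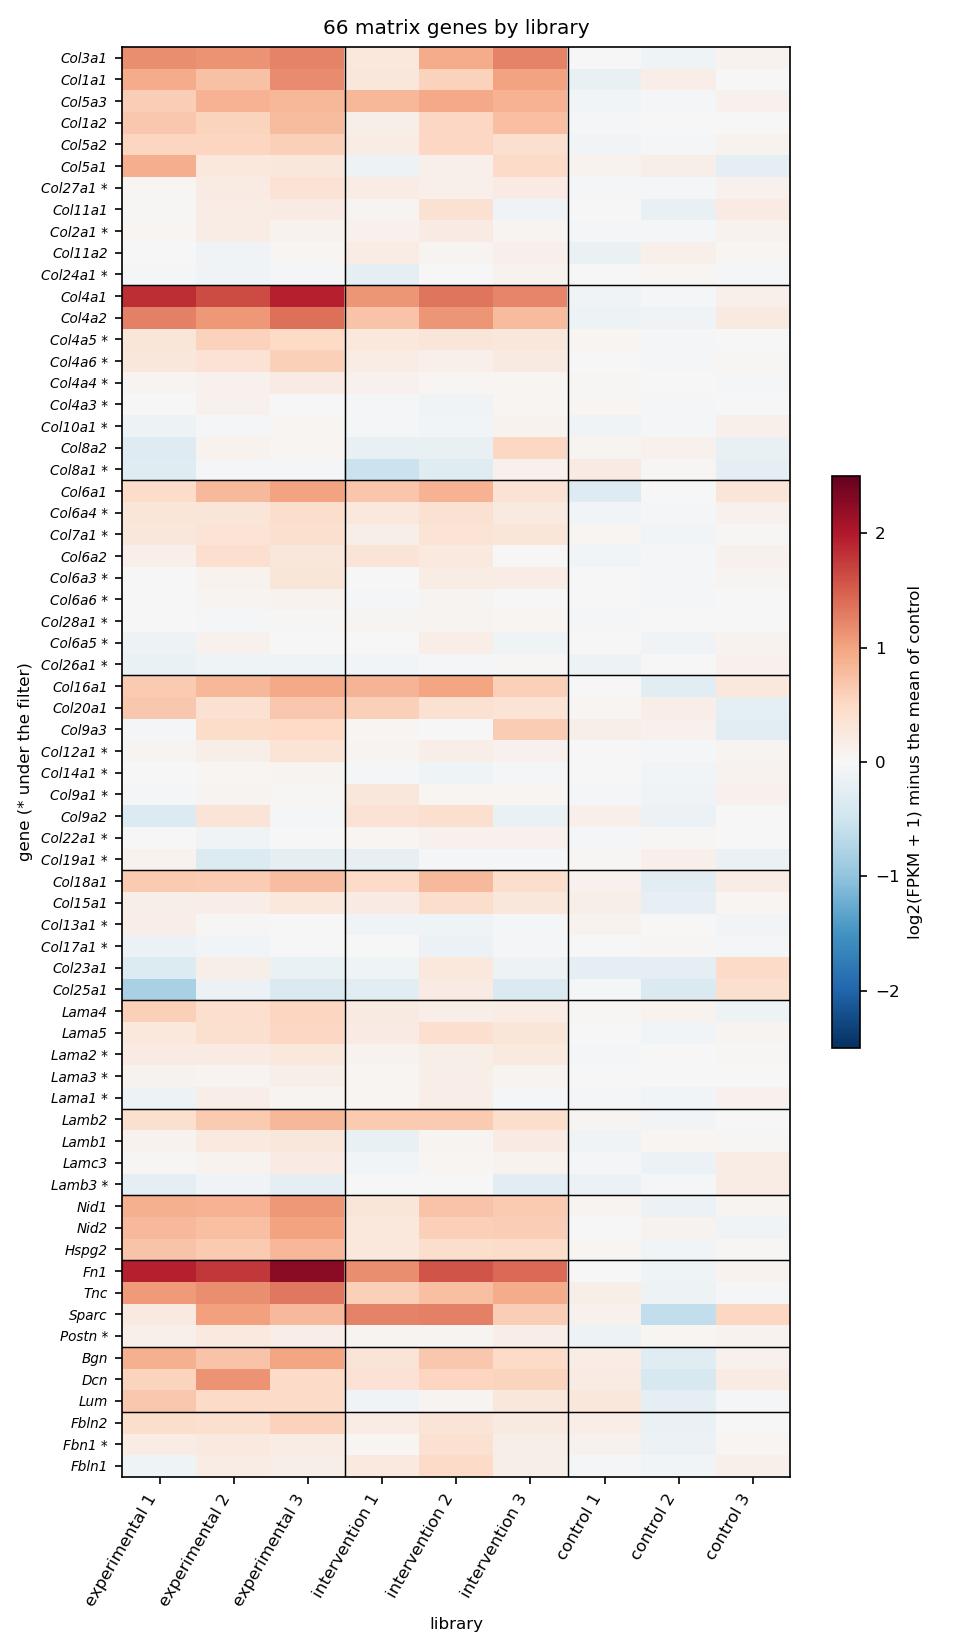
Difference of log2(FPKM + 1) from the control mean for 66 of the 67 matrix genes (rows, grouped by role) in the 9 libraries (columns), where red is higher and blue lower than control and stars mark genes under the filter. Fn1 and Col4a1 are the reddest rows in the experimental libraries, with log2 fold changes of 1.99 and 1.81, and paler in the intervention libraries.

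On the log2(FPKM + 1) scale the chains of the vascular basement membrane rose most among the tested collagens, while by the ratio of mean FPKM Col3a1 stood highest. Col4a1 and Col4a2 encode the partner chains of the collagen IV trimer that all basement membranes share. Col4a1 had 16.4, 13.9 and 17.7 FPKM in the experimental, 9.45, 11.3 and 10.2 FPKM in the intervention and 3.54, 3.70 and 4.30 FPKM in the control libraries. Col4a2 had 13.5, 11.8 and 14.8 FPKM in the experimental, 9, 12 and 9.44 FPKM in the intervention and 4.55, 4.68 and 6.10 FPKM in the control libraries. In both genes every experimental and every intervention library lay above every control library. Against control, the experimental group gave a log2 fold change of 1.81 ± 0.10 for Col4a1 (SE, limma adjusted p = 1.65e-06) and 1.24 ± 0.13 for Col4a2 (adjusted p = 8.07e-05). The ratio of mean FPKM was 4.16 and 2.62, since the log2(FPKM + 1) scale understates the change of low genes.

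Col4a1 (ENSMUSG00000031502.11, chr8:11198423-11312826 on the minus strand of mm10) and Col4a2 lie head to head, and their annotated transcripts overlap by 22 bases at the starts. Without knowing whether the counting used strand, reads in those bases cannot be assigned to one gene. The other collagen IV chains, which form the trimers of specialised basement membranes, lay under the filter. Col4a5 had 0.970, 1.39 and 1.25 FPKM in the experimental and 0.651, 0.561 and 0.592 FPKM in the control libraries, and Col4a6 had 0.427, 0.513 and 0.765 FPKM in the experimental and 0.173, 0.154 and 0.193 FPKM in the control libraries. Both lay higher in every experimental library, as did Col4a4 at under 0.3 FPKM, while Col4a3 overlapped. For a single gene the exact permutation test (two-sided) gives p = 0.1 at best with 3 libraries against 3, which was the value for these 3 genes.

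The linkers of the basement membrane rose as well. Nid1, which encodes the nidogen that bridges laminin and collagen IV, had 3.71, 3.67 and 4.37 FPKM in the experimental, 2.16, 3.2 and 2.99 FPKM in the intervention and 1.67, 1.31 and 1.68 FPKM in the control libraries. Nid2, its paralog, had 2.20, 2.09 and 2.71 FPKM in the experimental, 1.19, 1.76 and 1.81 FPKM in the intervention and 0.827, 0.964 and 0.725 FPKM in the control libraries. Hspg2, which encodes perlecan, had 1.79, 1.66 and 2.02 FPKM in the experimental, 1.04, 1.32 and 1.35 FPKM in the intervention and 0.760, 0.619 and 0.725 FPKM in the control libraries. In all 3 genes every intervention library lay below every experimental and above every control library. Their log2 fold changes of experimental over control were 0.95 ± 0.12, 0.86 ± 0.12 and 0.73 ± 0.09 (limma adjusted p = 0.000248, 0.000476 and 0.000286).

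Laminin genes moved less. Of the 10 chains 6 were tested, and 3 of these rose, where 19.9% of all tested genes rose. Lamb2, the beta chain of vascular and synaptic laminins and the highest of these chains in level, had 6.09, 7.50 and 8.64 FPKM in the experimental, 7.47, 7.52 and 6.35 FPKM in the intervention and 4.65, 4.17 and 4.41 FPKM in the control libraries. All libraries of the experimental group exceeded those of the control group, and the log2 fold change was 0.63 ± 0.11 (limma adjusted p = 0.00218). Lama4, the alpha chain of endothelial laminin, was at 1.42, 1.15 and 1.34 FPKM in the experimental and 0.650, 0.712 and 0.475 FPKM in the control libraries, again without overlap (0.52 ± 0.10, adjusted p = 0.00249). It reached 1 FPKM in the experimental libraries alone and so passed the filter through the group in which it was higher. Lama5, an alpha chain of mature vessels, was at 1.56, 1.85 and 2.06 FPKM in the experimental and 1.15, 1.05 and 1.24 FPKM in the control libraries (0.39 ± 0.10, adjusted p = 0.0108). With quantile normalization Lama4 and Lama5 no longer passed, and their adjusted p over the 17 alternative settings reached 0.0770 and 0.0686.

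Other laminin chains did not pass. Lamb1, the beta chain of early laminins, and the gamma chain Lamc3 had log2 fold changes of 0.21 and 0.10 (limma adjusted p = 0.168 and 0.478). Lama2, the alpha chain made by astrocytes and pericytes in the brain, lay under the filter with 0.974, 0.970 and 1.05 FPKM in the experimental, 0.816, 0.890 and 1.02 FPKM in the intervention and 0.680, 0.690 and 0.749 FPKM in the control libraries. Its control libraries lay below the 6 others, and the exact permutation p was 0.1, the smallest possible. Lama3, of epithelial laminin, was also higher in each experimental library, at under 0.5 FPKM, and Lama1 and Lamb3 overlapped between the groups.

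**Figure D2:**
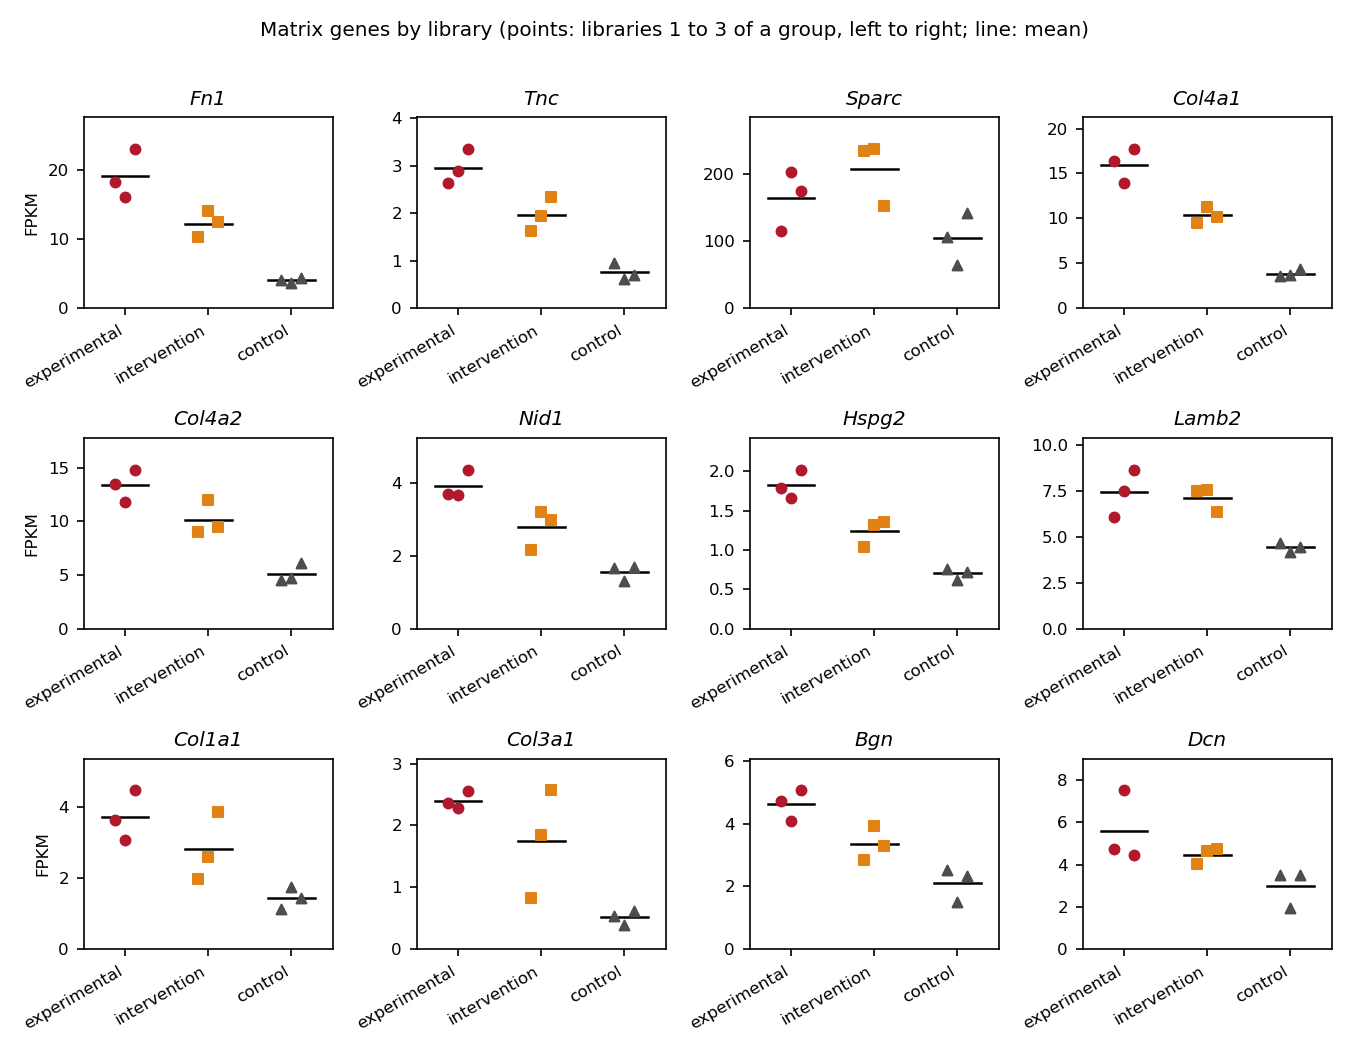
FPKM (y axes, starting at 0) of 12 matrix genes in the experimental, intervention and control groups, with 1 point per library and a line at the mean of 3. In Fn1, Col4a1, Tnc, Nid1 and Hspg2 the 3 groups do not overlap, while in Sparc the experimental and control libraries overlap.

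Among glycoproteins of the interstitial matrix, Fn1 had the largest rise of the matrix genes tested on the log2(FPKM + 1) scale. It encodes fibronectin, a scaffold for cell adhesion that is also a plasma protein. Fn1 (ENSMUSG00000026193.15, chr1:71585520-71653200 on the minus strand of mm10) had 18.2, 16.1 and 23.0 FPKM in the experimental, 10.3, 14.0 and 12.4 FPKM in the intervention and 4.09, 3.68 and 4.33 FPKM in the control libraries. The 3 groups did not overlap, and the ratio of mean FPKM of experimental over control was 4.74 (log2 fold change 1.99 ± 0.14, limma adjusted p = 4.94e-06). Tnc, which encodes the adhesion-modulating tenascin C, had 2.64, 2.90 and 3.35 FPKM in the experimental, 1.63, 1.94 and 2.34 FPKM in the intervention and 0.942, 0.611 and 0.706 FPKM in the control libraries. Its groups did not overlap either (1.18 ± 0.12, adjusted p = 5.19e-05).

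Sparc, a collagen-binding matricellular protein that astrocytes and endothelial cells express, was the most abundant of the 67 genes in all 3 groups. It had 115, 203 and 175 FPKM in the experimental, 235, 237 and 152 FPKM in the intervention and 106, 64.0 and 142 FPKM in the control libraries. Experimental 1 lay below control 3, so the groups overlapped, and the log2 fold change of 0.69 ± 0.30 did not pass (limma adjusted p = 0.105). It did pass without experimental 1 (0.92 ± 0.31, adjusted p = 0.0491) or without control 3 (0.95 ± 0.30, adjusted p = 0.0392). Over the 17 alternatives its adjusted p ran from 0.0392 to 0.324. Postn, encoding the matricellular periostin of fibroblasts, was under the filter, with 0.495, 0.615 and 0.543 FPKM in the experimental and 0.261, 0.408 and 0.446 FPKM in the control libraries, and did not overlap.

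Fibrillar collagens, the chains of banded fibrils, rose in 5 of 8 tested genes, where 19.9% of all tested genes rose. Col3a1, of pliable tissues and vessel walls, had 2.36, 2.29 and 2.55 FPKM in the experimental, 0.821, 1.85 and 2.57 FPKM in the intervention and 0.527, 0.393 and 0.613 FPKM in the control libraries. Every experimental library lay above every control library, while intervention 1 lay close to control and intervention 3 just above the experimental libraries. The log2 fold change of experimental over control was 1.17 ± 0.20 (limma adjusted p = 0.00176), and the ratio of mean FPKM was 4.70. Col1a1, the main chain of collagen I, had 3.63, 3.06 and 4.47 FPKM in the experimental, 1.97, 2.60 and 3.86 FPKM in the intervention and 1.14, 1.74 and 1.44 FPKM in the control libraries. Col1a2, its partner chain, had 2.99, 2.70 and 3.34 FPKM in the experimental, 1.79, 2.58 and 3.23 FPKM in the intervention and 1.47, 1.53 and 1.55 FPKM in the control libraries. Both were higher without overlap in the experimental group (0.95 ± 0.18 and 0.67 ± 0.14, adjusted p = 0.00306 and 0.00432), and in both intervention 1 was the lowest and intervention 3 the highest of its group.

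The collagen V chains, which set fibril diameter, split. Col5a3 had 0.957, 1.33 and 1.28 FPKM in the experimental, 1.29, 1.49 and 1.34 FPKM in the intervention and 0.227, 0.242 and 0.388 FPKM in the control libraries, with the control libraries far below the others (experimental over control 0.77 ± 0.10, limma adjusted p = 0.000369). Col5a2 rose by 0.56 ± 0.11 (adjusted p = 0.00314), to a mean of 1.04 FPKM in experimental libraries, against 0.384 FPKM in control libraries. Like Lama4, it reached 1 FPKM in the experimental libraries alone and so passed the filter through them. Col3a1 and Col5a2 are neighbours, tail to tail at a distance of 24614 bases. Col5a1 was at 3.65, 1.94 and 2.01 FPKM in the experimental and 1.61, 1.73 and 1.1 FPKM in the control libraries and did not pass (0.49 ± 0.20, adjusted p = 0.0910). The cartilage collagens Col11a1 and Col11a2 had log2 fold changes of 0.14 and -0.02. Of the 3 fibrillar genes under the filter, Col24a1 was lower in each experimental library, at 0.397, 0.374 and 0.396 FPKM against 0.441, 0.510 and 0.406 FPKM in control libraries, and Col2a1 and Col27a1 overlapped.

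Beaded-filament, fibril-associated and multiplexin collagens gave 4 further rises, where 19.9% of all tested genes rose. Col6a1, a chain of the collagen VI microfibrils around vessels, had 10.5, 13.6 and 15.8 FPKM in the experimental, 12.5, 14.2 and 9.69 FPKM in the intervention and 5.73, 7.45 and 9.33 FPKM in the control libraries. The experimental libraries lay above the control libraries, with a narrow gap between experimental 1 and control 3 (0.76 ± 0.19, limma adjusted p = 0.0122). Its partner Col6a2 was lower in level, with means of 2.09 ± 0.307 FPKM in the experimental and 1.55 ± 0.164 FPKM in the control group (SD, n = 3 each), and did not pass (adjusted p = 0.0803).

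Col16a1, a fibril-associated collagen, had 3.53, 4.12 and 4.55 FPKM in the experimental, 4.23, 4.70 and 3.35 FPKM in the intervention and 1.88, 1.42 and 2.45 FPKM in the control libraries. Its experimental and intervention libraries covered the same range, above control (experimental over control 0.81 ± 0.15, limma adjusted p = 0.00228). Col20a1, another fibril-associated chain, was at 1.5, 1.04 and 1.5 FPKM in the experimental and 0.620, 0.758 and 0.330 FPKM in the control libraries, without overlap (0.58 ± 0.14, adjusted p = 0.00860, and up to 0.131 over the alternatives, with quantile normalization). Col18a1, the multiplexin of basement membranes from which endostatin is cut, was at 2.29, 2.23 and 2.55 FPKM in the experimental and 1.23, 0.707 and 1.36 FPKM in the control libraries, also without overlap (0.69 ± 0.14, adjusted p = 0.00408).

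The tested collagens with negative fold changes were Col25a1, Col23a1, Col8a2, Col9a2 and Col11a2, and none passed. Col25a1, a transmembrane collagen of neurons, stood lowest of these, at 2.36, 4.35 and 3.62 FPKM in the experimental and 4.72, 3.62 and 6.79 FPKM in the control libraries. Its groups overlapped (-0.44 ± 0.23, limma adjusted p = 0.167). Col15a1, a multiplexin, and the cartilage collagen Col9a3 had log2 fold changes of 0.19 and 0.30 and did not pass either.

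The small leucine-rich proteoglycans, which bind collagen fibrils, rose in 3 of 3 cases, where 19.9% of all tested genes rose. Bgn (biglycan) had 4.73, 4.07 and 5.06 FPKM in the experimental, 2.84, 3.92 and 3.27 FPKM in the intervention and 2.52, 1.49 and 2.32 FPKM in the control libraries. Dcn (decorin) had 4.75, 7.52 and 4.45 FPKM in the experimental, 4.01, 4.66 and 4.75 FPKM in the intervention and 3.51, 1.96 and 3.51 FPKM in the control libraries. Lum (lumican) had 3.21, 2.67 and 2.69 FPKM in the experimental, 1.49, 1.77 and 2.24 FPKM in the intervention and 2.23, 1.25 and 1.55 FPKM in the control libraries. In all 3 the experimental libraries lay above the control libraries, and the intervention libraries of Lum lay within or next to the control range. The log2 fold changes of experimental over control were 0.87 ± 0.14 for Bgn, 0.72 ± 0.20 for Dcn and 0.54 ± 0.14 for Lum (limma adjusted p = 0.00132, 0.0189 and 0.0160). The call of Dcn ended without experimental 2 or control 2, and that of Lum without experimental 1 or control 2 (adjusted p from 0.0535 to 0.0570). Over all alternatives the adjusted p reached 0.0660 for Dcn and 0.0559 for Lum.

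Of the elastic fibre genes, Fbln2, encoding a fibulin of vessel walls, was at 1.52, 1.45 and 1.77 FPKM in the experimental and 1.09, 0.663 and 0.853 FPKM in the control libraries and rose (0.47 ± 0.11, limma adjusted p = 0.00704, and up to 0.0504 over the alternatives, with quantile normalization). Its groups did not overlap. Fbln1, another fibulin, had a log2 fold change of 0.08. Fbn1, which encodes the microfibril protein fibrillin-1, was under the filter with 0.719, 0.794 and 0.709 FPKM in the experimental and 0.621, 0.359 and 0.571 FPKM in the control libraries, which did not overlap.

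Over the 29 genes under the filter, every experimental library exceeded every control library in 10, and 9% of all entries under the filter showed this. The entries behind such shares, here and in the other comparisons, were not matched in level to the matrix genes. The 10 were Col4a4, Col4a5, Col4a6, Col6a4, Col7a1, Col12a1, Lama2, Lama3, Fbn1 and Postn, and the exact permutation p was 0.1 for each. Col7a1, the anchoring fibril collagen of skin, was the clearest by ratio after Col4a6, at 0.393, 0.441 and 0.505 FPKM in the experimental and 0.178, 0.0862 and 0.163 FPKM in the control libraries. The reverse order was seen in Col24a1 alone, against 3.37% of entries. The libraries overlapped in the other 18, which were Col2a1, Col27a1, Col4a3, Col8a1, Col10a1, Col6a3, Col6a5, Col6a6, Col26a1, Col28a1, Col9a1, Col14a1, Col19a1, Col22a1, Col13a1, Col17a1, Lama1 and Lamb3.

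**Figure D3:**
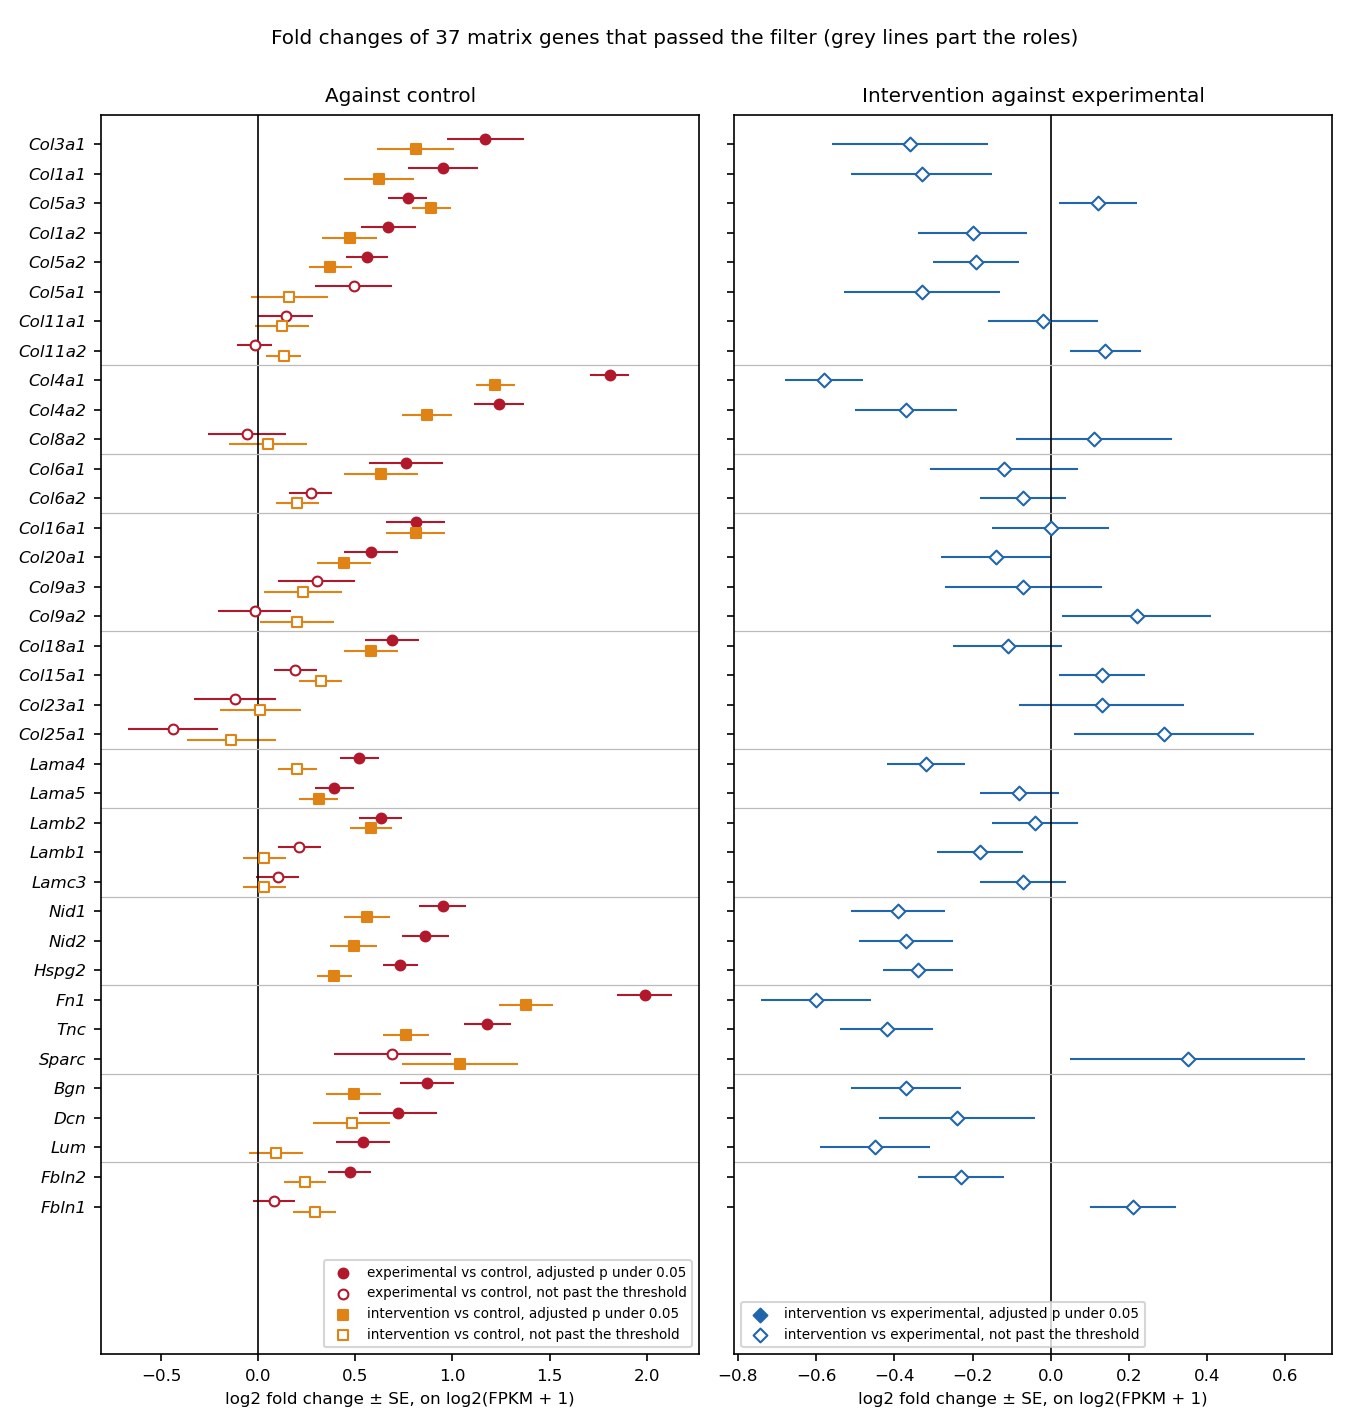
Log2 fold change ± SE on log2(FPKM + 1) for 37 of the 38 tested matrix genes grouped by role, for experimental and intervention over control (left) and for intervention over experimental (right), with filled symbols where the limma adjusted p was under 0.05. On the left 23 experimental and 20 intervention points are filled and all of these lie right of 0, and on the right 0 of 37 are filled and 27 lie left of 0.

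Genes that fold, modify and crosslink collagen mostly moved in the same direction. Of 27 listed genes 23 were tested, and 15 rose and 0 fell in the experimental against the control group. Over all tested genes, 19.9% rose and 17.3% fell. Of the 23 fold changes 19 lay above 0 and 4 below, the lowest in Adamts3 (-0.22). The 4 genes named here had the smallest adjusted p. Serpinh1, the collagen chaperone HSP47, averaged 17.9 ± 1.53 FPKM in the experimental, 14.0 ± 1.36 FPKM in the intervention and 7.64 ± 0.580 FPKM in the control group (SD, n = 3 each; experimental over control 1.13 ± 0.09, limma adjusted p = 1.6e-05). Crtap, of the complex that hydroxylates collagen prolines, rose by 0.94 ± 0.08, the lysyl hydroxylase gene Plod1 by 1.08 ± 0.10 and the procollagen protease gene Bmp1 by 0.72 ± 0.08 (adjusted p = 2.55e-05, 2.97e-05 and 7.35e-05). The receptors that cells use to bind matrix rose in 11 of 17 tested cases, of 25 listed, and fell in 0. Of their fold changes 14 lay above 0 and 3 below, the lowest in Itga3 (-0.39). Again the 4 with the smallest adjusted p are named. Itga6 of the laminin-binding integrins averaged 9.59 ± 0.826 FPKM in the experimental, 6.87 ± 0.925 FPKM in the intervention and 2.71 ± 0.219 FPKM in the control group (1.51 ± 0.10, adjusted p = 3.79e-06). Itgb1, the shared beta chain of collagen and laminin receptors, rose by 0.95 ± 0.09, Itgb5, a beta chain of vitronectin receptors, by 1.62 ± 0.10 and the hyaluronan receptor gene Cd44 by 1.92 ± 0.13 (adjusted p = 3.9e-05, 1.85e-06 and 3.71e-06).

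Markers of several cell types that make matrix moved with these genes. The counts of rises given here stand beside 19.9% of all tested genes that rose. Endothelial markers rose in 10 of 10 cases, with sums of 107 to 124 FPKM in the experimental, 79.7 to 85.0 FPKM in the intervention and 43.8 to 46.8 FPKM in the control libraries. Markers of microglia and macrophages also rose in 10 of 10 cases, with sums of 652 to 719 FPKM in the experimental, 433 to 611 FPKM in the intervention and 72.6 to 80.9 FPKM in the control libraries. Astrocyte markers rose in 8 of 10, with 1060 to 1380 FPKM in the experimental, 1070 to 1190 FPKM in the intervention and 502 to 528 FPKM in the control libraries. In each of these 3 lists, and in the pericyte and oligodendrocyte precursor lists given next, the control libraries lay below the 6 others. Pericyte and smooth muscle markers rose in 6 of 9 tested cases, with 130 to 132 FPKM in the experimental, 102 to 116 FPKM in the intervention and 78.5 to 91.8 FPKM in the control libraries. Markers of oligodendrocyte precursors rose in 5 of 6 cases, with 76.8 to 83.1 FPKM in the experimental, 74.0 to 80.1 FPKM in the intervention and 52.4 to 57.1 FPKM in the control libraries. Of 12 fibroblast and meningeal markers that are not matrix genes 7 were tested, and 2 rose and 2 fell. Their sums overlapped, at 19.8 to 23.7 FPKM in the experimental, 20.4 to 23.7 FPKM in the intervention and 17.3 to 23.5 FPKM in the control libraries. None of the markers of these lists was at 0 in all libraries, and the part of each cell type in the matrix result was not tested.

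The second comparison asked whether matrix expression differed with the intervention, between the intervention and the experimental group. At the threshold of 0.05, 0 of 38 matrix genes passed in limma, as did 0% of all 14570 genes. At an unadjusted p under 0.05, 10 of the 38 were lower and 0 higher, where 6.42% of all tested genes were lower. The fold change was below 0 in 28 of 38 (73.7%), where 47.3% of all tested genes lay below 0. In 11 of the 38 every intervention library lay below every experimental library (8.16% of all tested genes), and the reverse was seen in 1, Col11a2 (5.07%). The experimental libraries enter both this comparison and the one with control.

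The 5 genes with the smallest p were Col4a1, Fn1, Tnc, Hspg2 and Lama4, and each had lower values in all 3 intervention libraries than in any experimental library. The log2 fold change of intervention over experimental was -0.58 ± 0.10 for Col4a1 (limma adjusted p = 0.0845) and -0.60 ± 0.14 for Fn1 (adjusted p = 0.139). Over the 17 alternative settings the adjusted p of Col4a1 ran from 0.0712 to 0.318 and that of Fn1 from 0.131 to 0.464. Tnc, Hspg2 and Lama4 had log2 fold changes of -0.42 ± 0.12, -0.34 ± 0.09 and -0.32 ± 0.10 (adjusted p = 0.224, 0.227 and 0.264). Lama4 had 0.892, 0.811 and 0.831 FPKM in the intervention libraries, against 1.42, 1.15 and 1.34 FPKM in the experimental libraries. Lama4, and Col5a2 among the 11 genes without overlap, reached 1 FPKM in the experimental libraries alone and so passed the filter through the group in which they were higher. The largest positive value was that of Sparc (0.35 ± 0.30, adjusted p = 0.843), and Col16a1 was at 0.00 ± 0.15.

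By role, fold changes lay below 0 in 6 of 8 tested fibrillar collagens, 2 of 3 network-forming collagens, 3 of 3 basement membrane linkers and 3 of 3 leucine-rich proteoglycans. Above 0 lay 3 of 4 tested transmembrane and multiplexin collagens, 2 of 4 fibril-associated collagens, 1 of 2 fibulins and Sparc. The largest of these after Sparc were Col25a1 (0.29), Col9a2 (0.22) and Fbln1 (0.21), and none passed. The nidogens, perlecan, Bgn and Lum had log2 fold changes from -0.45 to -0.34 with no overlap of libraries, and Col5a2 and Fbln2 did not overlap either. Col4a2 (-0.37) and Dcn (-0.24) lay below 0 with overlap, as did the laminin chains Lamb1, Lamb2 and Lamc3 (-0.18 to -0.04). Of the 29 genes under the filter, every intervention library was lower in Col4a6, Col13a1 and Col14a1 (3.87% of entries under the filter) and higher in Col22a1, Col26a1 and Col28a1 (2.9%). Col4a6 had 0.332, 0.283 and 0.368 FPKM in the intervention libraries, against 0.427, 0.513 and 0.765 FPKM in the experimental libraries (exact permutation p = 0.1, the smallest possible). Of the collagen-modifying and receptor genes 0 passed, with 20 of 23 and 14 of 17 fold changes below 0. Over all tested genes, 47.3% lay below 0. Endothelial markers and markers of microglia and macrophages also lay below 0 in 10 of 10 cases each, none past the threshold, and their part was not tested.

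The third comparison set the intervention against the control group, and here 20 of 38 matrix genes were higher and 0 lower, where 16.9% of all tested genes were higher and 11.4% lower. By role they were 5 fibrillar collagens, the 2 collagen IV chains, Col6a1, Col16a1, Col20a1 and Col18a1, the laminin chains Lama5 and Lamb2, the 3 basement membrane linkers, Fn1, Tnc, Sparc and Bgn. Of these, Tnc, Col3a1, Col5a3, Col5a2, Nid2, Hspg2 and Col20a1 reached 1 FPKM in no control library. They passed the filter through the other groups, Col5a2 through the experimental libraries alone. Rescaled to TPM 13 matrix genes passed, beside 1706 higher and 3622 lower genes over all, against 2461 and 1659 in FPKM, and with quantile normalization 12 passed, beside 2009 higher and 2041 lower genes. With no filter 11 of the 67 passed, where 6.6% of all entries, not matched in level, were higher. The count was 10 without intervention 2, 13 without control 1 and 12 without control 2.

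Col4a1 had the smallest adjusted p, with a log2 fold change of 1.22 ± 0.10 (limma adjusted p = 3.8e-05), and Fn1 had the largest change on the log2(FPKM + 1) scale, 1.38 ± 0.14 (adjusted p = 9.4e-05). By the ratio of mean FPKM of intervention over control, Col5a3 (4.81) and Col3a1 (3.42) exceeded Fn1 (3.03) and Col4a1 (2.68). Col5a3, Col4a2 and Tnc followed with 0.89 ± 0.10, 0.87 ± 0.13 and 0.76 ± 0.12 (adjusted p = 0.000255, 0.00129 and 0.00141). In these 5 genes every intervention library exceeded every control library, in the values given above. Sparc rose by 1.04 ± 0.30 (adjusted p = 0.0313), with its lowest intervention library just above its highest control library. That call ended without intervention 1, intervention 2, control 1 or control 2, among other alternatives (adjusted p up to 0.108). Dcn, Fbln2, Lama4 and Lum did not pass here, with log2 fold changes of 0.48, 0.24, 0.20 and 0.09 (adjusted p from 0.1 to 0.677). The intervention group did not differ from the experimental group past the threshold in these 4 genes either. Among collagen-modifying genes 14 of 23 rose and among matrix receptors 8 of 17, where 16.9% of all tested genes were higher. Over the 29 genes under the filter every intervention library exceeded every control library in 10 (7.83% of entries under the filter).

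Within a group, libraries differed over many matrix genes at once. Among the 38 tested genes, intervention 1 was the lowest of its group in 23 and intervention 2 the highest in 20. Experimental 3 was the highest of its group in 24, and control 2 the lowest and control 3 the highest of theirs in 20 and 19.

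The balance of partner chains was examined after the values had been seen. The ratio of Col4a1 to Col4a2 was 1.21, 1.18 and 1.2 in the experimental, 1.05, 0.942 and 1.08 in the intervention and 0.779, 0.791 and 0.706 in the control libraries, so that the 3 groups did not overlap. The Col6a1 to Col6a2 ratio averaged 6.39 ± 0.970 in the experimental, 6.28 ± 0.673 in the intervention and 4.80 ± 0.704 in the control group (SD, n = 3 each), with overlap of the experimental and intervention libraries only. The Col1a1 to Col1a2 ratio averaged 1.23 ± 0.102 in the experimental, 1.1 ± 0.0935 in the intervention and 0.949 ± 0.185 in the control group, with overlap between control and both others. For the collagen IV ratio the exact permutation test (two-sided) gave p = 0.1 in each comparison, the smallest possible, and 0.180 after adjustment over the 9 tests of these ratios. The collagen VI ratio gave p = 0.1 against control in both groups and 0.9 between them, and the collagen I ratio 0.2 to 0.3 in exact tests. None of these ratios passed a threshold of 0.05.

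**Figure D4:**
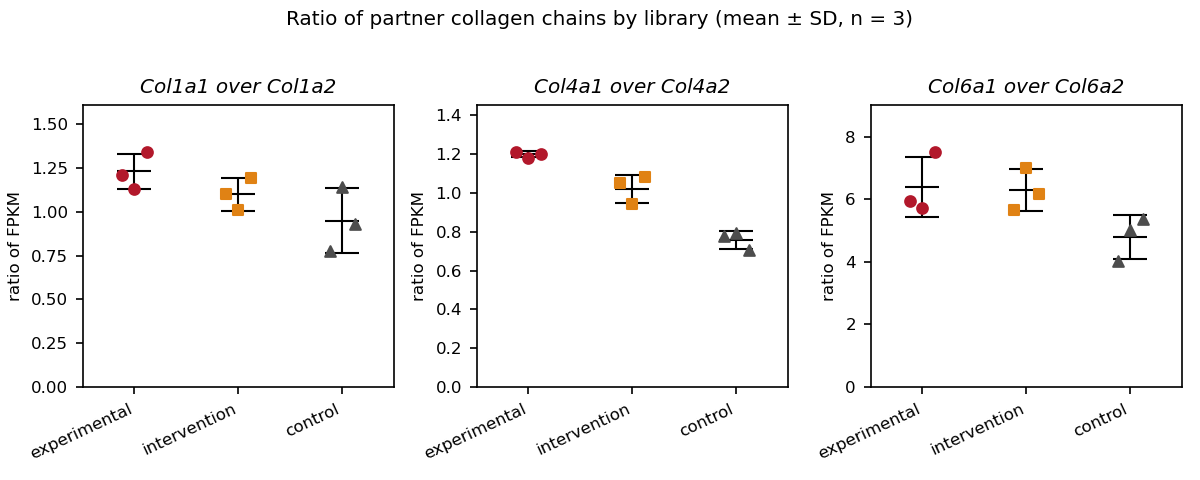
Ratio of FPKM of partner collagen chains (y axes, starting at 0) in the experimental, intervention and control groups, with 1 point per library and bars for mean ± SD over 3 libraries. The Col4a1 to Col4a2 ratio has means of 1.2 in the experimental, 1.02 in the intervention and 0.759 in the control group, with no overlap.

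The levels of 3 collagens, chosen after their values were seen, are given beside the choroid plexus markers as a description. Col8a1, a short-chain collagen of vessel and eye basement membranes, had 0.563, 0.874 and 0.855 FPKM in the experimental, 0.323, 0.565 and 1.09 FPKM in the intervention and 1.23, 0.966 and 0.639 FPKM in the control libraries. The summed choroid plexus markers were 297, 774 and 755 FPKM in the experimental, 214, 265 and 1190 FPKM in the intervention and 918, 798 and 331 FPKM in the control libraries. Within each group Col8a1, which lay under the filter, had the same order of libraries as these markers. Col8a1 was the only 1 of the 67 genes to do so (1.49%), so no tested matrix gene did. Of all tested genes of the series 0.487% did, a share that leaves out genes under the filter such as Col8a1. Its partner Col8a2 and the cartilage collagen Col9a3 had their highest value in intervention 3, at 2.01 and 8.38 FPKM, but did not keep the order of the markers in every group. Neither of these 2 passed in any comparison, and the part of choroid plexus tissue in their levels was not tested.

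**Figure D5:**
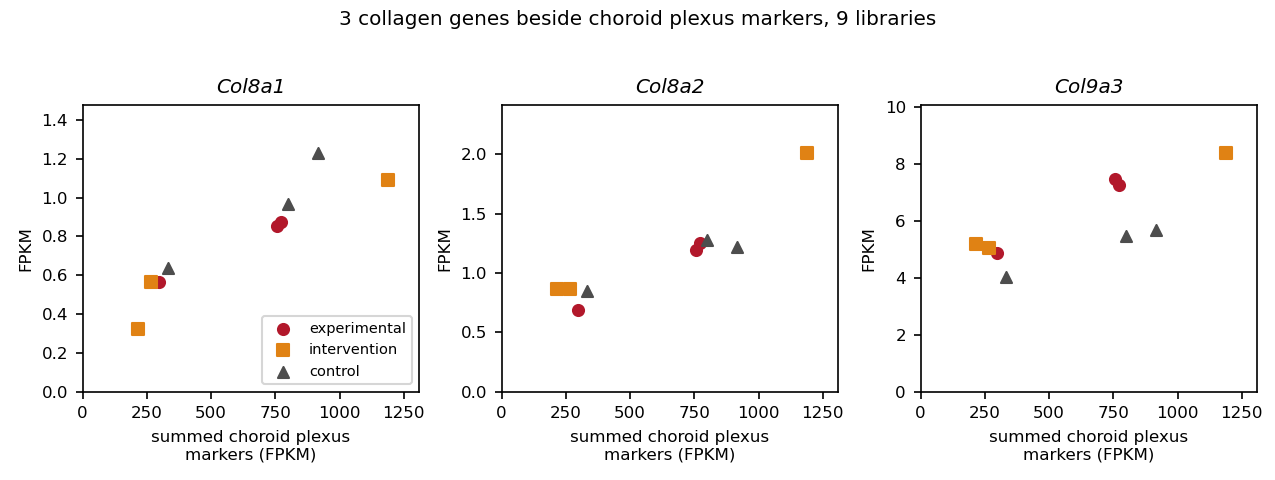
FPKM of Col8a1, Col8a2 and Col9a3 (y axes) beside the summed FPKM of choroid plexus markers (x axes) in the 9 libraries, both linear and starting at 0. Intervention 3, with 1190 FPKM of markers, is highest in Col8a2 and Col9a3, and the libraries of each group spread along the x axis.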

How the data were processed

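The values are FPKM as the authors deposited them, with 1 column for each library, per the file headers. The genome build was mm10, per the submitters' processing notes. No source used here gives the aligner, counting tool, annotation or use of strand. RNA came from a Qiagen RNeasy extraction and libraries from a SMARTer mRNA kit, per the labels' protocols.

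The matrix genes were matched by symbol to GENCODE M21, and 67 of 67 had a match. FPKM were transformed as log2(FPKM + 1). Genes with at least 1 FPKM in 3 of 9 libraries were fitted together over all libraries, 1 mean for each group, with limma 3.58.1 in R 4.3.3 (trend on mean level, 6 residual degrees of freedom). P-values are two-sided and were adjusted by Benjamini-Hochberg over 14570 genes, with 0.05 as the threshold. The model was tested on simulated data. Genes under the filter were given exact permutation tests (scipy 1.17.1). Alternatives were a pseudocount of 0.1, other filters, TPM, quantile normalization, only the groups compared, no trend, a replicate block and each library left out.

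Every matrix gene could be named. Values in full were given, against control, for the 3 with the smallest adjusted p per role, if past the threshold and with a mean of at least 1 FPKM, and for 15 fixed genes, and for the 5 with the smallest p in the other comparisons. The genes, lists and rules were chosen with earlier results of these data known. A few items of the family are not reported here.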

Additional observations from a re-analysis of the deposited data

How the results depend on the processing

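Over 17 alternatives 0 of the called changes turned round in the experimental against control comparison, where 16 of the 23 calls held in all of them. Col20a1, Col5a2, Dcn, Fbln2, Lama4, Lama5 and Lum lost theirs in at least 1, and the count of matrix genes called was 17 with quantile normalization and 21 to 24 with 1 library left out. In the intervention against control comparison 8 of 20 calls held in all alternatives (Col16a1, Col4a1, Col4a2, Col5a3, Fn1, Lamb2, Nid1 and Tnc). The count was 11 with no filter, 13 in TPM, 12 with quantile normalization and 10 to 20 with 1 library left out. With quantile normalization Col5a2 stood at -0.02 there. Between intervention and experimental, 0 matrix genes passed in any alternative. Over all genes 35 passed with quantile normalization, 8 without a trend and up to 1 with a library left out. Without intervention 1, 2668 genes passed between intervention and control, against 4120. In TPM the median log2 fold change of the tested genes was -0.183 in experimental against control and -0.145 in intervention against control. Same-numbered libraries had correlations of deviations from -0.536 to 0.209, and differently numbered libraries from -0.534 to 0.493. With such a spread they cannot show whether the numbers pair the samples, which the labels do not state. With a replicate block 23, 0 and 16 matrix genes passed in the 3 comparisons. The Col4a1 to Col4a2 ratio differed by 0.411 between experimental and control without control 3, against 0.438. The causes of these shifts were not tested. Depth is unknown, so that the precision of low genes rests on the 3 libraries of each group.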
